A study of Mus musculus with 4 samples.

Results

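The 38 genes described here encode enzymes and transporters of central carbon metabolism in myeloid cells from mouse tumors. They were chosen by symbol and by a total of at least 20 unique molecular identifiers (UMIs, each standing for 1 captured transcript) over 2 libraries. All 38 of 38 listed genes passed that minimum, out of 13657 genes in all that did. The set holds 19 genes of glycolysis and lactate handling, 4 of the pentose phosphate pathway, 14 of pyruvate oxidation, the TCA cycle and its branches, and Acod1, which makes itaconate.

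The series addressed VISTA, an inhibitory receptor encoded by Vsir, in myeloid suppressor cells of tumors, and its title names STAT3 and polyamines. Bone marrow chimeras were made with marrow of WT and VISTA KO donors of strain C57/BL6 and were left for 6 weeks to reconstitute. They carried MC38 tumors, a transplanted mouse colon carcinoma, which were taken at a width of 9 to 10 mm, pooled and digested. CD45.1 and CD45.2 told WT from KO cells, and viable CD11b+ cells were sorted for droplet sequencing of transcript 3′ ends. The WT group and the VISTA KO group each held 1 gene expression library of pooled tumors, so no test was possible, cells were not taken as replicates, and every interval covers counting error only. The sources used here do not give the age of the mice, the deleted part of Vsir or the number of tumors in the pool.

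Glycolysis splits glucose into pyruvate in the cytosol, and lactate dehydrogenase and the monocarboxylate transporters dispose of the pyruvate as lactate when cells rely on glycolysis. The pentose phosphate pathway branches off at glucose 6-phosphate and supplies NADPH, which the oxidative burst of phagocytes uses, and ribose. The TCA cycle oxidises acetyl-CoA in mitochondria, and in activated myeloid cells Acod1 diverts cis-aconitate from it to itaconate, which inhibits succinate dehydrogenase and modifies the sensor Keap1. Transcription of many glycolysis genes is driven by the hypoxia-inducible factors, which bind the core motif ACGTG, and by Myc.

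Promoter windows are shown for members whose levels carry the results below: 4 glycolysis genes that differed between cell classes or between the libraries, Taldo1 as the pentose phosphate gene with the opposite pattern across cell classes, and Acod1. Each line gives 150 bases that end right before a RefSeq transcript start, 5′ to 3′ on the gene's strand, in build GRCm38.p6. For a gene with several annotated starts, the window with the most matches to the motif ACGTG was taken. Capitals mark ACGTG or its reverse complement CACGT.
Pgk1: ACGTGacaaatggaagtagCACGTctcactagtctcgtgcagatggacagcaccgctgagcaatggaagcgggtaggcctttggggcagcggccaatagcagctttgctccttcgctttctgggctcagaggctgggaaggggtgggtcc
Ldha: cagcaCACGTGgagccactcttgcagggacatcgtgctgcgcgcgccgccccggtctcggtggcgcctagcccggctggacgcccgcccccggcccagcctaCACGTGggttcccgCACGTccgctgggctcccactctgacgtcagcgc
Pgam1: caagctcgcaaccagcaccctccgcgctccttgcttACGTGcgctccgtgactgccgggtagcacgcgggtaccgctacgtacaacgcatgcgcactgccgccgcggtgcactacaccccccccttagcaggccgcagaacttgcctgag
Hk2: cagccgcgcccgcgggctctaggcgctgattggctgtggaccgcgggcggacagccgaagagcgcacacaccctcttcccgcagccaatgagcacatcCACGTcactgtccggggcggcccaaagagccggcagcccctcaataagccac
Taldo1: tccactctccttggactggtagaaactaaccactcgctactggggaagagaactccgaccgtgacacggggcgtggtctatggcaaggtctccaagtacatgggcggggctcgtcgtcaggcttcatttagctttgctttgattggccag
Acod1: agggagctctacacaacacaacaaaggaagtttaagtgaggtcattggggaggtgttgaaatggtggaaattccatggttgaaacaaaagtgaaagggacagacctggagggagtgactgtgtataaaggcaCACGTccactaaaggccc
The windows lie at chrX:106186950-106187099 on the plus strand for Pgk1, chr7:46845654-46845803 on the plus strand for Ldha and chr19:41911721-41911870 on the plus strand for Pgam1. That of Hk2 is at chr6:82774455-82774604 on the minus strand. Those of Taldo1 and Acod1 are at chr7:141392010-141392159 and chr14:103046862-103047011, both on the plus strand. All lie just outside the annotated gene except that of Ldha, which precedes a start inside the annotated span of the gene.

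The Ldha window held 5 matches, counting both strands of the palindromic hexamer CACGTG, the Pgk1 window held 2, and those of Pgam1, Hk2 and Acod1 held 1 each. Taldo1 held 0. Over the 250 bases upstream of all annotated starts, on both strands, RefSeq windows were found for 37 of the 38 members. ACGTG was present for 10 of 19 glycolysis genes, 0 of 4 pentose phosphate genes, 4 of 13 TCA genes and Acod1. Counted by gene, the share was 24.8% of the 10375 genes measured in these libraries that had a window. Counted by window, of which a gene can have several, it was 16.6% of all 32851. The glycolysis genes whose windows are shown all had ACGTG. Gapdh, Eno1, Gpi1, Pfkl and Aldoc, which are not shown, had no match to it in these bases. The windows shown thus do not stand for the glycolysis list. The motif GCGTG, which the same factors and others bind, was present for 12 of 19 glycolysis, 4 of 4 pentose phosphate and 8 of 13 TCA genes but not for Acod1, against 48.5% of measured genes. The STAT motif TTCNNNGAA was found for Aldoc alone among the 37, against 7.32% of measured genes. A match describes the letters of the window and no more.

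The WT library held 10241 barcodes and 61753547 UMIs and the VISTA KO library 15257 barcodes and 80366761 UMIs. Filtering kept 10193 and 15140 cells with medians of 4692 and 4212.5 UMIs, and 47 barcode sequences occurred in both. Vsir, the targeted gene, was at 136.5 CPM (UMIs per 1000000 UMIs of the cells summed) in WT and 46.2 CPM in VISTA KO cells. Its transcripts were thus still found in the library labelled VISTA KO, and a 3′ tag outside the deleted part would not show the deletion. Malat1, a nuclear RNA, was at 10148 CPM in WT and 13406 CPM in VISTA KO cells, and the median mitochondrial share was 0.90% and 1.10%. Its excess was of like size in monocyte-like (7490 and 10544 CPM) and macrophage-like cells (10446 and 14051 CPM), while NK-like cells were at 15078 and 16245 CPM. The part of RNA quality in the ratios below was not tested.

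Cells were clustered without any gene of the metabolic and hypoxia lists, and clusters were named from marker RNA. Monocyte-like cells numbered 2767 in WT and 2277 in VISTA KO, and macrophage-like cells 1455 and 4351. Only 386 and 77 cells were neutrophil-like, with median depths of 1209.5 and 1391 UMIs. A cluster of 1885 and 776 cells held neutrophil and macrophage markers together and is called the mixed neutrophil cluster. Further classes were conventional DC2-like (cDC2-like; 478 and 754 cells), mature DC-like (173 and 259) and NK cell-like (634 and 591). The summed macrophage list was at 22897 and 23560 CPM in macrophage-like cells and at 5138 and 7246 CPM in NK-like cells, so transcripts of that list were found outside the class too.

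Summed glycolysis transcripts were highest in the unnamed cluster 13 and lowest in the monocyte-like cluster 10 in both libraries. The 19 genes summed to 11559 CPM in WT and 10114 CPM in VISTA KO macrophage-like cells, against 6810 and 5496 CPM in monocyte-like cells. The mixed neutrophil cluster stood at 10301 and 9309 CPM and the mixed cDC2 and macrophage class at 10080 and 10338 CPM, the latter below macrophage-like cells in WT and above them in VISTA KO. Neutrophil-like cells (6780 and 5690 CPM), cDC2-like cells (6704 and 5343 CPM), mature DC-like cells (6377 and 5365 CPM) and NK-like cells (5925 and 6242 CPM) were close to monocyte-like cells. Over the 20 clusters the highest sum was 3.73 times the lowest in WT and 3.81 times in VISTA KO, and the Spearman correlation between the libraries was 0.93, given as a description over 20 clusters that share each library's depth.

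**Figure D1:**
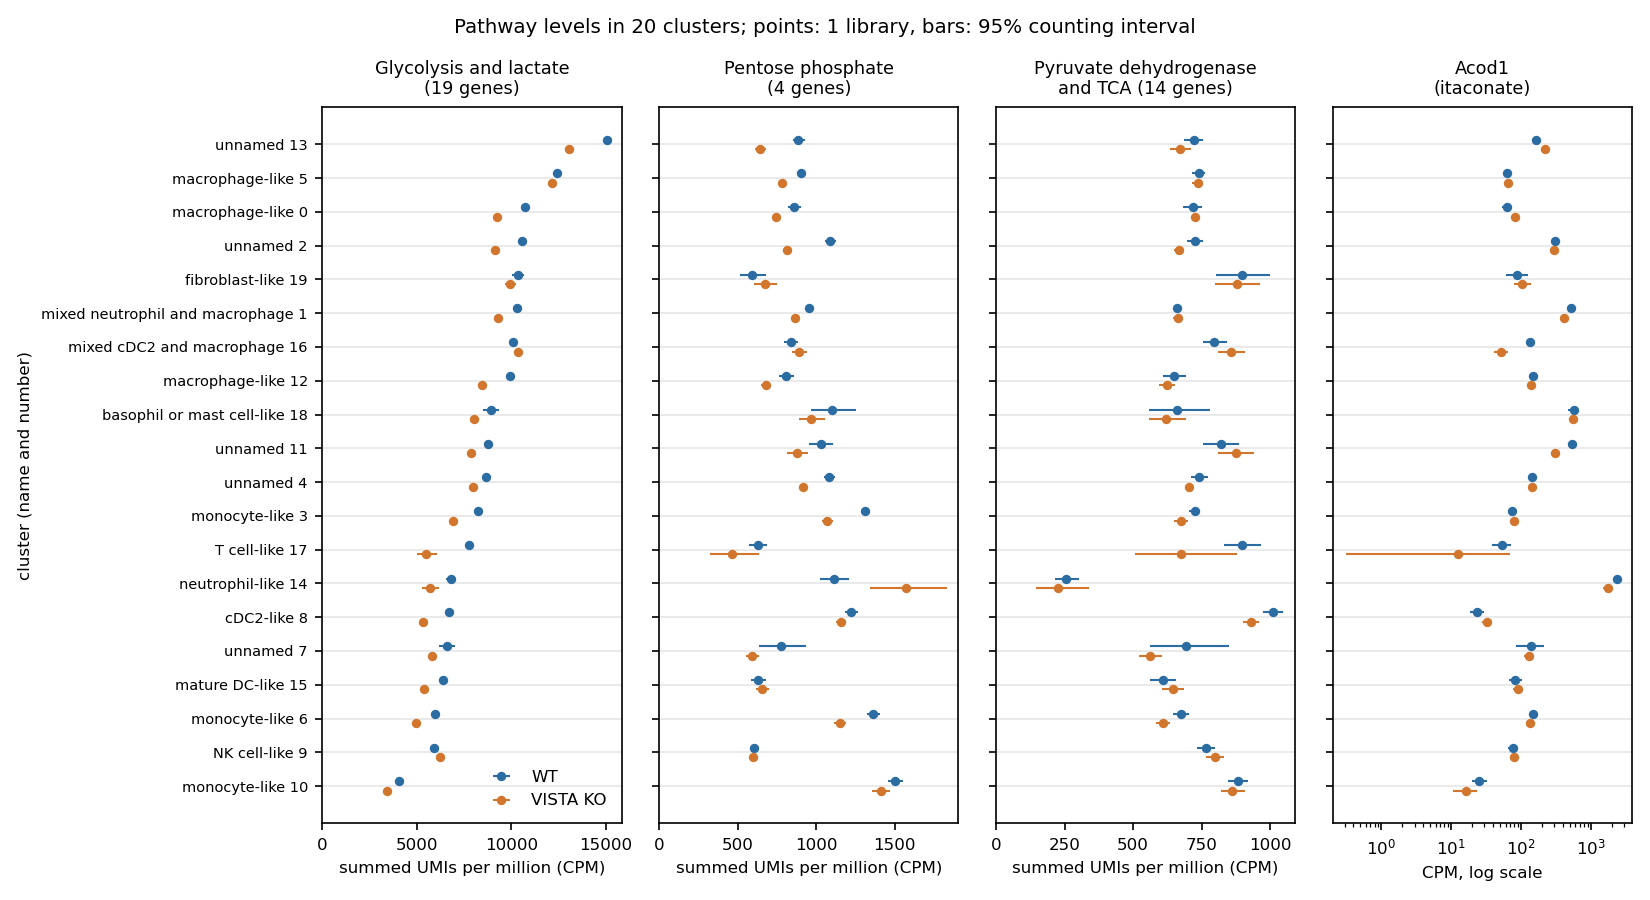
Summed level of each pathway, in CPM, in each of the 20 clusters and both libraries (1 point per cluster and library with its 95% counting interval, Acod1 on a log axis). Glycolysis was highest in cluster 13 (15079 and 13038 CPM) and low in monocyte-like cluster 10 (4038 and 3419 CPM), where pentose phosphate transcripts were high.

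Set against monocyte-like cells, 8 of 38 members were at least 1.5-fold higher in macrophage-like cells in both libraries with intervals leaving out 1, and 2 were lower. Over all 10627 genes measured in that comparison, 18.0% were higher and 7.83% lower, so the count of members was near the background. All 8 belonged to glycolysis: Gpi1, Pfkl, Aldoa, Aldoc, Gapdh, Pgk1, Pgam1 and Ldha, which span the path from glucose 6-phosphate to lactate. The glycolysis median was 0.39 in WT and 0.48 in VISTA KO on the log2 scale, and that of all genes 0.17 in both. Gapdh, which reduces NAD+ in the payoff phase, was at 3902 CPM in WT and 3014 CPM in VISTA KO macrophage-like cells and at 2037 and 1294 CPM in monocyte-like cells, a log2 difference of 0.94 and 1.22. Aldoc, the second aldolase, was low throughout, with 18.3 and 25.5 CPM against 2.54 and 3.48 CPM. The lower pair was G6pdx and Taldo1, both of the pentose phosphate pathway.

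**Figure D2:**
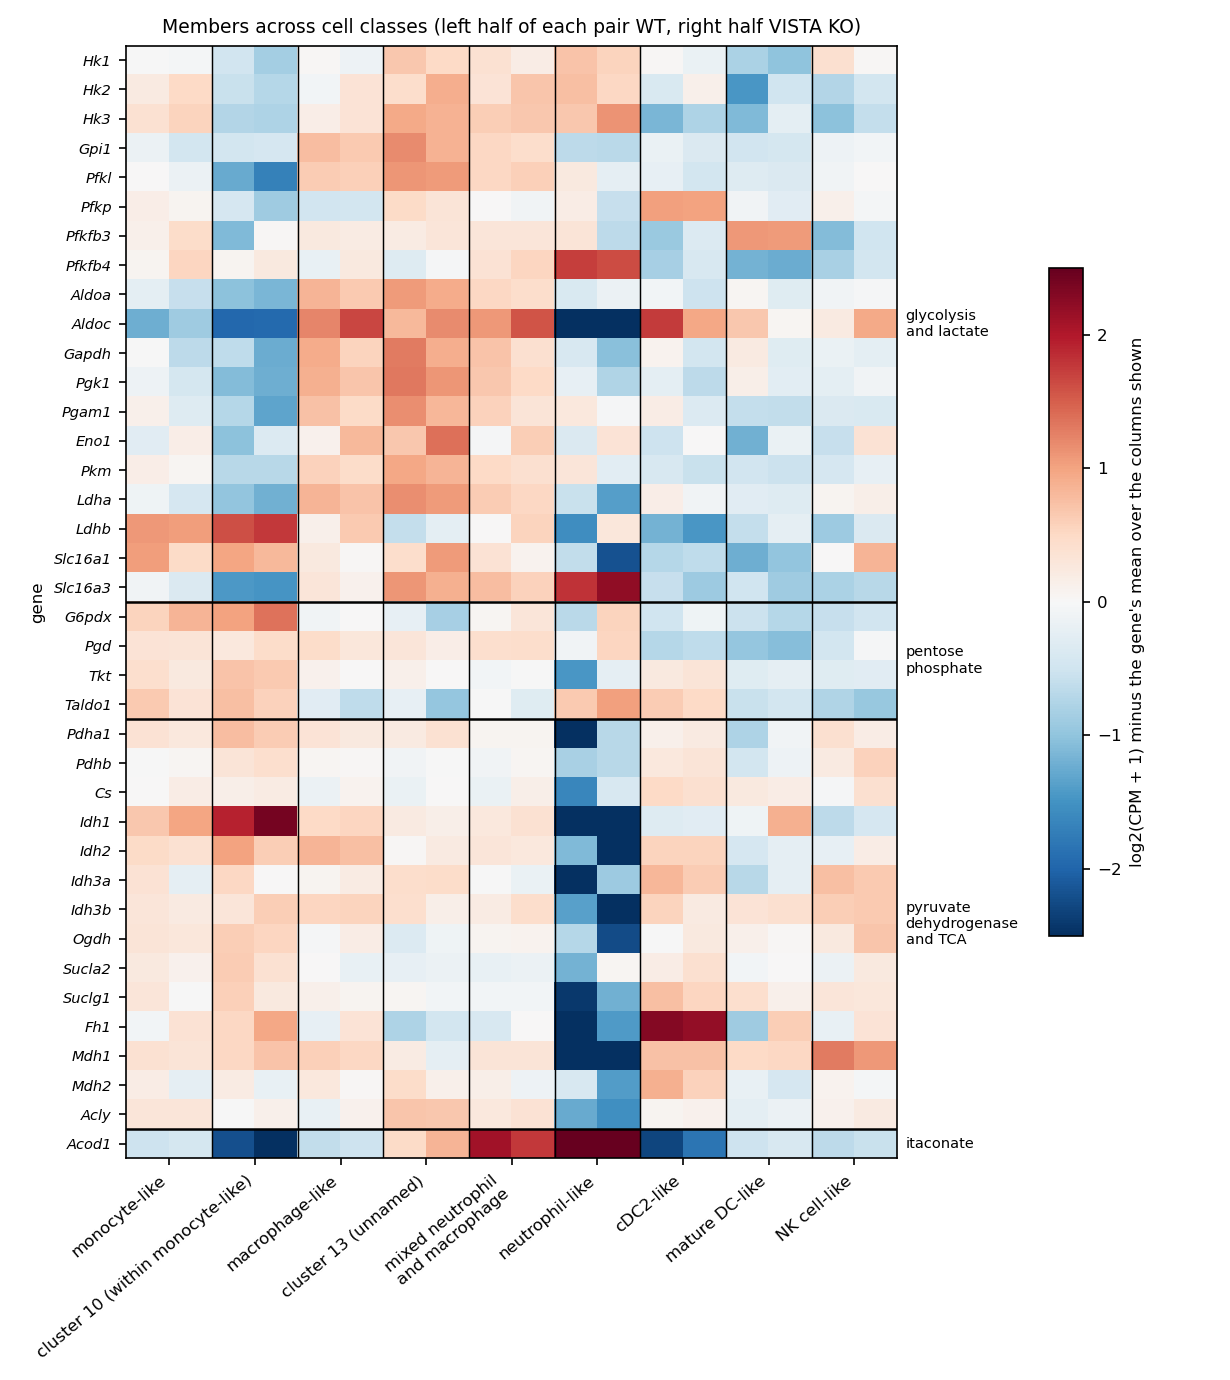
Level of each member in each class as log2 of CPM plus 1, less the gene's mean over the columns, with colours clipped at the ends of the bar. Each pair of columns gives WT on the left and VISTA KO on the right, and the glycolysis block is raised in macrophage-like cells and cluster 13 while Taldo1 and G6pdx are raised in monocyte-like cells.

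Cluster 13 (425 and 423 cells) stayed unnamed and was led by Ccl7, Ccl2, Nos2, Arg1, Spp1 and the hypoxia gene Hilpda. Against monocyte-like cells, 12 of 38 members were higher and 4 lower, with 5.84% and 9.35% of all 9437 genes. Of the 12, 11 were glycolysis genes. Pgk1, which makes the first ATP of the payoff phase, was at 1273 and 1091 CPM, and the lactate dehydrogenase gene Ldha at 1601 and 1478 CPM. The lactate exporter Slc16a3 (MCT4) was at 407 and 348 CPM, compared with 176 and 146 CPM in monocyte-like cells. Ldhb, G6pdx, Taldo1 and the fumarase gene Fh1 were lower. Of the hypoxia list, 16 of 19 measured genes were higher there and 0 lower, and the list summed to 5401 and 4936 CPM against 2149 and 1958 CPM in monocyte-like cells.

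The opposite end was cluster 10 (605 and 444 cells), the monocyte-like cluster led by Ceacam1, Ear2 and Spn, genes known from patrolling, nonclassical monocytes. Compared with the other monocyte-like cells, 13 of 38 members were lower and 4 higher, with 5.88% and 9.62% of all 9098 genes. The lower group held 12 glycolysis genes and Acod1. Pgk1 was at 241 and 218 CPM, Ldha at 360 and 309 CPM, and the phosphofructokinase gene Pfkl at 22.8 and 16.7 CPM. The higher group was Ldhb, G6pdx, Idh1 and Fh1. Idh1, which makes NADPH in the cytosol, was at 75.8 and 106 CPM in cluster 10 and at 31.6 and 39.3 CPM in all monocyte-like cells. Of the hypoxia list, 0 of 18 measured genes were higher in cluster 10 and 14 were lower. Over the 20 clusters, the Spearman correlation of summed glycolysis with the summed hypoxia list was 0.81 in WT and 0.92 in VISTA KO. That of glycolysis with pentose phosphate was -0.20 and -0.31, and with the TCA list -0.05 and 0.14. Points of 1 library share its depth and free RNA, so these values are descriptions.

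Pentose phosphate transcripts were high in monocyte-like, cDC2-like and neutrophil-like cells. The 4 genes summed to 1364 and 1168 CPM in monocyte-like cells, WT before VISTA KO, to 1114 and 1572 CPM in neutrophil-like cells, 1224 and 1159 CPM in cDC2-like cells, 876 and 747 CPM in macrophage-like cells, and 605 and 599 CPM in NK-like cells. Taldo1, the transaldolase of the non-oxidative arm, made up 909 and 732 CPM of the monocyte-like sum. Its level was 903 and 815 CPM in cDC2-like, 474 and 373 CPM in macrophage-like and 344 and 300 CPM in NK-like cells. Tkt, the transketolase that works beside it, was at 250 and 223 CPM in monocyte-like, 151 and 155 CPM in NK-like and 67.9 and 161 CPM in neutrophil-like cells. G6pdx, which catalyses the first and rate-limiting oxidative step, was at 47.4 and 58.3 CPM in monocyte-like, 29.96 and 31.8 CPM in macrophage-like and 64.5 and 82.7 CPM in cluster 10. Pgd, the second NADPH-producing step, did not share the monocyte-macrophage difference, with 158 and 155 CPM against 171 and 152 CPM.

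The balance of the 3 pathways differed more between classes than the TCA level itself. Per 100 glycolysis UMIs, cluster 10 held 37.2 (WT) and 41.3 (VISTA KO) pentose phosphate UMIs, and all monocyte-like cells 20.02 and 21.2. Macrophage-like cells held 7.58 and 7.38 and cluster 13 held 5.88 and 4.94. For TCA transcripts the corresponding values were 21.8 and 25.2 in cluster 10, 15.04 and 17.4 in cDC2-like cells, 10.9 and 12.5 in monocyte-like cells and 6.21 and 7.09 in macrophage-like cells. Neutrophil-like cells held only 3.78 and 3.99 TCA UMIs per 100 glycolysis UMIs.

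**Figure D3:**
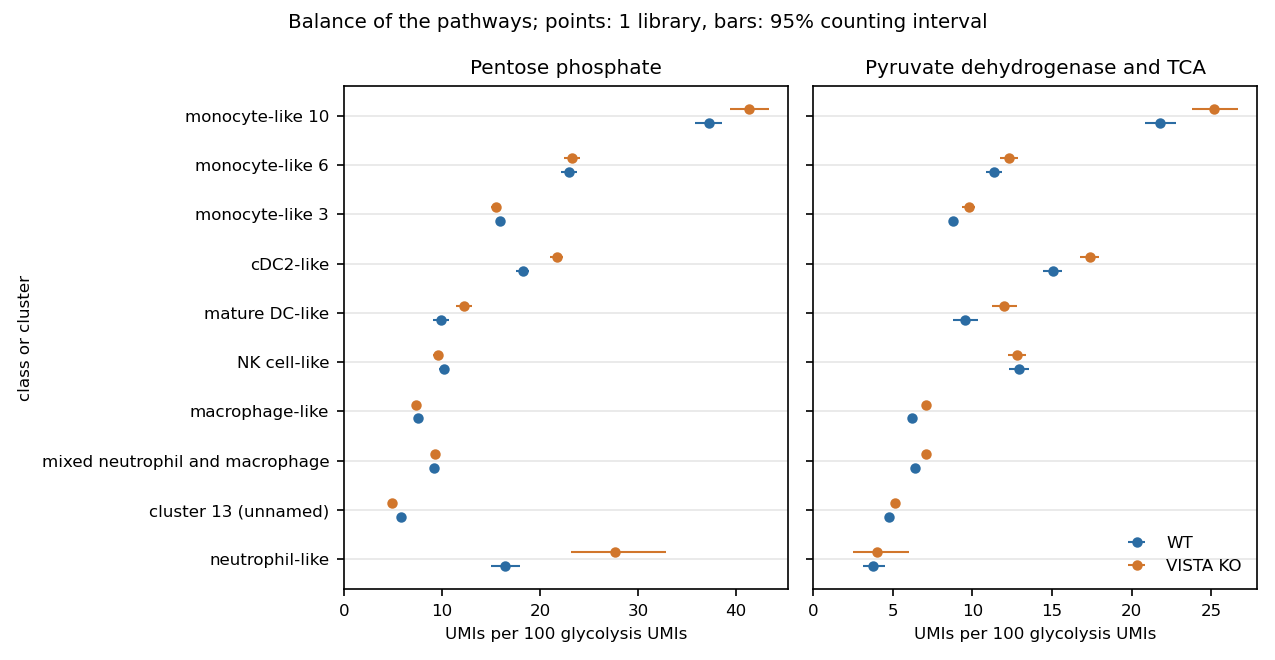
Pentose phosphate (one panel) and TCA UMIs (the other) per 100 glycolysis UMIs in each class and library, with exact binomial intervals. Cluster 10 of the monocyte-like cells is at the high end of both, and cluster 13 and neutrophil-like cells are at the low end of the TCA panel.

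TCA transcripts were nearly level between monocyte-like cells (745 and 687 CPM) and macrophage-like cells (718 and 717 CPM). cDC2-like cells were above both at 1008 and 928 CPM, and neutrophil-like cells far below at 256 and 227 CPM, from 132 and 24 UMIs. In cDC2-like cells 4 of 38 members were higher than in monocyte-like cells and 9 lower, with 9.32% and 8.79% of all 9767 genes. Fh1, the fumarase that hydrates fumarate to malate, was at 135 and 127 CPM in cDC2-like cells and at 25.7 and 34.8 CPM in monocyte-like cells, a log2 difference of 2.39 and 1.87. Mdh2, the mitochondrial malate dehydrogenase of the next step, was at 283 and 226 CPM against 174 and 131 CPM. The phosphofructokinase gene Pfkp and Aldoc completed the higher group. Among the 9 lower genes were Hk3, Pfkfb3, G6pdx, Pgd, Idh1 and Acod1.

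Idh3a, a subunit of the NAD-dependent isocitrate dehydrogenase, was at 34.0 and 29.7 CPM in cDC2-like cells and 24.3 and 15.9 CPM in monocyte-like cells. Pdha1 and Pdhb encode the pyruvate dehydrogenase subunits that admit pyruvate to the cycle. Pdha1 was at 40.4 and 37.6 CPM in monocyte-like and 39.8 and 37.4 CPM in macrophage-like cells, and Pdhb at 31.0 and 32.5 CPM in monocyte-like cells. Cs, the citrate synthase gene of the entry step, was at 38.3 and 43.5 CPM in monocyte-like and 53.8 and 50.3 CPM in cDC2-like cells. Ogdh, of the 2-oxoglutarate dehydrogenase complex, was at 60.5 and 58.6 CPM in monocyte-like and 74.7 and 70.6 CPM in cluster 10. Idh2, the mitochondrial NADP enzyme, was at 25.3 and 23.6 CPM in monocyte-like and 33.03 and 30.9 CPM in macrophage-like cells. Idh3b stood at 44.7 and 42.3 CPM and Sucla2, a succinyl-CoA ligase subunit, at 33.05 and 29.6 CPM in monocyte-like cells. Acly, which turns exported citrate into cytosolic acetyl-CoA, was at 92.9 and 91.8 CPM in cluster 13 and 70.2 and 70.7 CPM in monocyte-like cells. Its highest level over the 20 clusters was in the unnamed cluster 11, of low depth, at 124 and 139 CPM.

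Of the glycolysis members not yet given, Pkm, whose pyruvate kinase makes the last ATP of the path, was at 1087 and 1007 CPM in monocyte-like, 1441 and 1335 CPM in macrophage-like and 1907 and 1737 CPM in cluster 13. Gpi1, the glucose 6-phosphate isomerase gene, was at 518 and 473 CPM in macrophage-like and 686 and 554 CPM in cluster 13. Hk3, a hexokinase of myeloid cells, was at 96.5 and 108 CPM in monocyte-like but 32.6 and 42.5 CPM in cDC2-like cells. Slc16a3 had its highest level among the classes described in neutrophil-like cells, at 662 and 880 CPM.

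NK-like cells, which are lymphoid cells with CD11b, had 2 members higher and 8 lower than monocyte-like cells, with 21.4% and 9.29% of all 9925 genes. Mdh1, the cytosolic malate dehydrogenase of the malate-aspartate shuttle, was higher at 122 and 105 CPM against 63.8 and 61.5 CPM, and Aldoc was the other. Taldo1, G6pdx, Hk2 and Hk3 were among the 8 lower. In mature DC-like cells 2 members were higher and 10 lower, with 11.4% and 12.3% of all 9484 genes. Pfkfb3, which makes the activator fructose 2,6-bisphosphate of phosphofructokinase, was higher at 129 and 128 CPM against 65.9 and 83.0 CPM. The mixed neutrophil cluster had 8 members higher and 1 lower, with 12.4% and 3.7% of all 10531 genes. Its higher group held 7 glycolysis genes and Acod1, and the lower gene was Taldo1.

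Isozyme shares separated some classes. UMI shares depend on how well each 3′ end is captured, so they were compared between classes and not read as protein ratios. Pfkp made up 86.8% and 88.7% of Pfkl and Pfkp UMIs in cDC2-like cells, 75.9% and 76.7% in monocyte-like cells and 56.5% and 57.1% in macrophage-like cells. Pfkfb3 made up 91.9% and 92.2% of Pfkfb3 and Pfkfb4 UMIs in mature DC-like cells and 70.2% and 68.0% in monocyte-like cells. In neutrophil-like cells its share was 45.3% and 30.8%, where Pfkfb4 stood at 91.2 and 85.2 CPM. Among hexokinases Hk2, the inducible form, made up 51.3% and 54.0% in monocyte-like cells and 48.4% and 54.5% in macrophage-like cells. Hk1, the constitutive form, reached 34.7% and 24.4% in NK-like cells. Ldhb, the dehydrogenase subunit that favours lactate oxidation, made up 6.59% and 8.35% of Ldha and Ldhb UMIs in cluster 10 and 0.651% and 1.07% in macrophage-like cells. Idh1 made up 67.1% and 79.1% of Idh1 and Idh2 UMIs in cluster 10 and 36.4% and 37.02% in cDC2-like cells.

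Acod1 was highest in neutrophil-like cells. It was at 2339 CPM (95% Poisson interval 2209 to 2475) in WT and 1742 CPM (1499 to 2013) in VISTA KO neutrophil-like cells. Basophil or mast cell-like cells (46 and 90 cells) stood at 572 and 563 CPM, the low-depth unnamed cluster 11 at 536 and 310 CPM, and the mixed neutrophil cluster at 517 and 408 CPM. Cluster 2, led by Cxcl9, Gpr84 and Nos2, was at 310 and 295 CPM. Cluster 13 was at 166 and 217 CPM. Acod1 stood at 83.0 and 88.3 CPM in monocyte-like, 77.7 and 83.2 CPM in macrophage-like and 82.6 and 90.1 CPM in mature DC-like cells. NK-like cells, which should lack Acod1, stood at 75.8 and 80.7 CPM. The averages of the monocyte-like, macrophage-like and mature DC-like classes were thus not read as expression above free RNA. The NK-like level is not a clean measure of free RNA, however. NK-like cells held the neutrophil transcripts S100a8 and S100a9 at 1078 and 190 CPM, against 116 and 44.1 CPM in monocyte-like cells. Whether the averages of these classes lie above free RNA was therefore not settled. Single clusters were higher, with monocyte-like cluster 6 at 150 and 135 CPM and macrophage-like cluster 12 at 150 and 139 CPM. The other monocyte-like and macrophage-like clusters were near or below the NK-like level. Cluster 10 (25.4 and 16.1 CPM) and cDC2-like cells (23.6 and 33.0 CPM) were below the NK-like level.

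Shares of cells with a UMI depend on depth and are given as found and with depth made equal. At least 1 Acod1 UMI was found in 78.2% of WT and 64.9% of VISTA KO neutrophil-like cells, in 90.3% and 88.4% of the mixed neutrophil cluster, in 9.62% and 17.6% of NK-like cells and in 20.1% and 18.7% of monocyte-like cells. After thinning each cell to 1000 UMIs, the shares were 76.8% and 59.4% in neutrophil-like cells, 42.2% and 42.2% in basophil or mast cell-like cells, 39.5% and 32.3% in the mixed cluster, 24.0% and 24.1% in cluster 2, 15.8% and 18.8% in cluster 13, 7.25% and 7.77% in monocyte-like cells and 2.93% and 4.90% in NK-like cells. Acod1 was also set against S100a8 and S100a9, the most abundant neutrophil transcripts. Per 100 of their UMIs there were 3.18 and 1.98 Acod1 UMIs in neutrophil-like cells, 7.03 and 42.4 in NK-like cells, 71.8 and 200 in monocyte-like cells, 379 and 478 in cluster 2 and 218 and 545 in cluster 13. The ratio thus differed between classes within each library.

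Over all kept cells Acod1 was at 270 CPM in WT and 163 CPM in VISTA KO, a log2 ratio of -0.73 (interval -0.76 to -0.69). Neutrophil-like cells made up 3.79% of WT and 0.51% of VISTA KO cells, and the mixed cluster 18.49% and 5.13%. With the clusters of both libraries weighted by the WT make-up, which was computed after the data had been seen, the ratio was -0.26, and with the VISTA KO make-up -0.12. Within the mixed neutrophil cluster it was -0.34 (-0.40 to -0.29), with the neutrophil list at 12453 and 9191 CPM there, and the part of this list in the ratio was not tested. Within cluster 13 it was 0.39 (0.19 to 0.59), and in monocyte-like and macrophage-like cells 0.09 and 0.10. Among the genes of the itaconate list (succinate dehydrogenase, the Keap1 and Nfe2l2 response, inflammasome genes), 2 of 22 measured were higher and 0 lower in VISTA KO monocyte-like cells, beside 12.9% and 7.09% of all genes. In macrophage-like cells 4 of 22 were higher and 5 lower, beside 9.67% and 5.59%. In cluster 13, 7 of 21 were higher and 0 lower, beside 9.12% and 4.11% of all 7904 genes.

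Between the libraries, summed glycolysis was lower in VISTA KO cells in 18 of 20 clusters, with a median log2 ratio of -0.21 over the 20. In monocyte-like cells the log2 ratio of VISTA KO to WT was -0.31 (interval -0.33 to -0.29), in macrophage-like cells -0.19 (-0.20 to -0.18), in cDC2-like cells -0.33 (-0.36 to -0.30) and in mature DC-like cells -0.25 (-0.30 to -0.20). NK-like cells were on the other side, at 0.08 (0.04 to 0.11), as was the mixed cDC2 and macrophage class at 0.04. The macrophage list was at 5138 CPM in WT and 7246 CPM in VISTA KO NK-like cells. At Leiden resolution 2 a mixed NK and macrophage cluster of 130 and 185 cells split off. The part of macrophage RNA in the NK-like ratio was not tested. Gapdh carried much of the sum, and without it the ratios were -0.18 in monocyte-like cells, -0.11 in macrophage-like cells and 0.14 in NK-like cells. Macrophage-like cells were unlike in make-up: cluster 0 held 32.4% of them in WT and 62.0% in VISTA KO, and cluster 5, led by Mmp12, Pf4 and Folr2, 48.4% and 24.6%. The glycolysis ratio was -0.22 in cluster 0, -0.03 in cluster 5 and -0.24 in cluster 12. Without cluster 0 the macrophage-like ratio was -0.089, and with each library clustered alone it was -0.020 and that of monocyte-like cells -0.14.

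Over all kept cells 5 of 38 members were at least 25% higher and 3 at least 20% lower in VISTA KO with an interval leaving out 1, with 14.6% and 7.73% of all 13656 genes. In monocyte-like cells 4 were higher and 7 lower, with 12.9% and 7.09% of all 10369 genes, and the median log2 ratio was -0.08 over members and 0.05 over all genes. The 7 lower members were thus above the background share, and the 4 higher ones near it. Counts depended on the size asked for: at 1.5-fold, 0 were higher and 3 lower. On ratios centred on the median gene, which lowered each ratio by 0.04, 11 were lower at the first size. The shares of all genes at 1.5-fold and after centring are not given, so these counts have no background beside them.

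The lower genes of monocyte-like cells were genes of the trunk of glycolysis, a lactate transporter gene and genes of the TCA cycle. Gapdh was at 2037 CPM in WT and 1294 CPM in VISTA KO, a log2 ratio of -0.65 (-0.69 to -0.62). Aldoa, the main aldolase, was at 743 and 588 CPM (-0.34), and Pgam1, the phosphoglycerate mutase whose promoter window is shown above, at 557 and 408 CPM (-0.45). Slc16a1 (MCT1), a lactate transporter, was near the limit of detection at 8.26 and 5.28 CPM. Of the TCA list Mdh2 was at 174 and 131 CPM (-0.41), the succinyl-CoA ligase gene Suclg1 at 82.3 and 65.6 CPM (-0.33), and the isocitrate dehydrogenase gene Idh3a at 24.3 and 15.9 CPM (-0.60). Pgk1 (465 and 376 CPM), Ldha (660 and 532 CPM), Gpi1 (272 and 219 CPM) and Taldo1 (909 and 732 CPM) each had a log2 ratio of -0.31, just short of the size asked for, and were not counted.

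The higher genes of monocyte-like cells included both regulatory bifunctional enzymes. Pfkfb3 was at 65.9 CPM in WT and 83.0 CPM in VISTA KO (0.33, 0.19 to 0.48), and Pfkfb4 at 28.0 and 39.0 CPM (0.48, 0.26 to 0.70). Eno1, the enolase gene, was at 172 and 236 CPM (0.46, 0.37 to 0.54), and Fh1 at 25.7 and 34.8 CPM (0.44, 0.21 to 0.66). Hk2, which phosphorylates glucose on entry, was at 148 and 178 CPM (0.26) and did not reach the size asked for. The list of 19 glycolysis genes thus held members on both sides, with 3 higher and 4 lower.

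**Figure D4:**
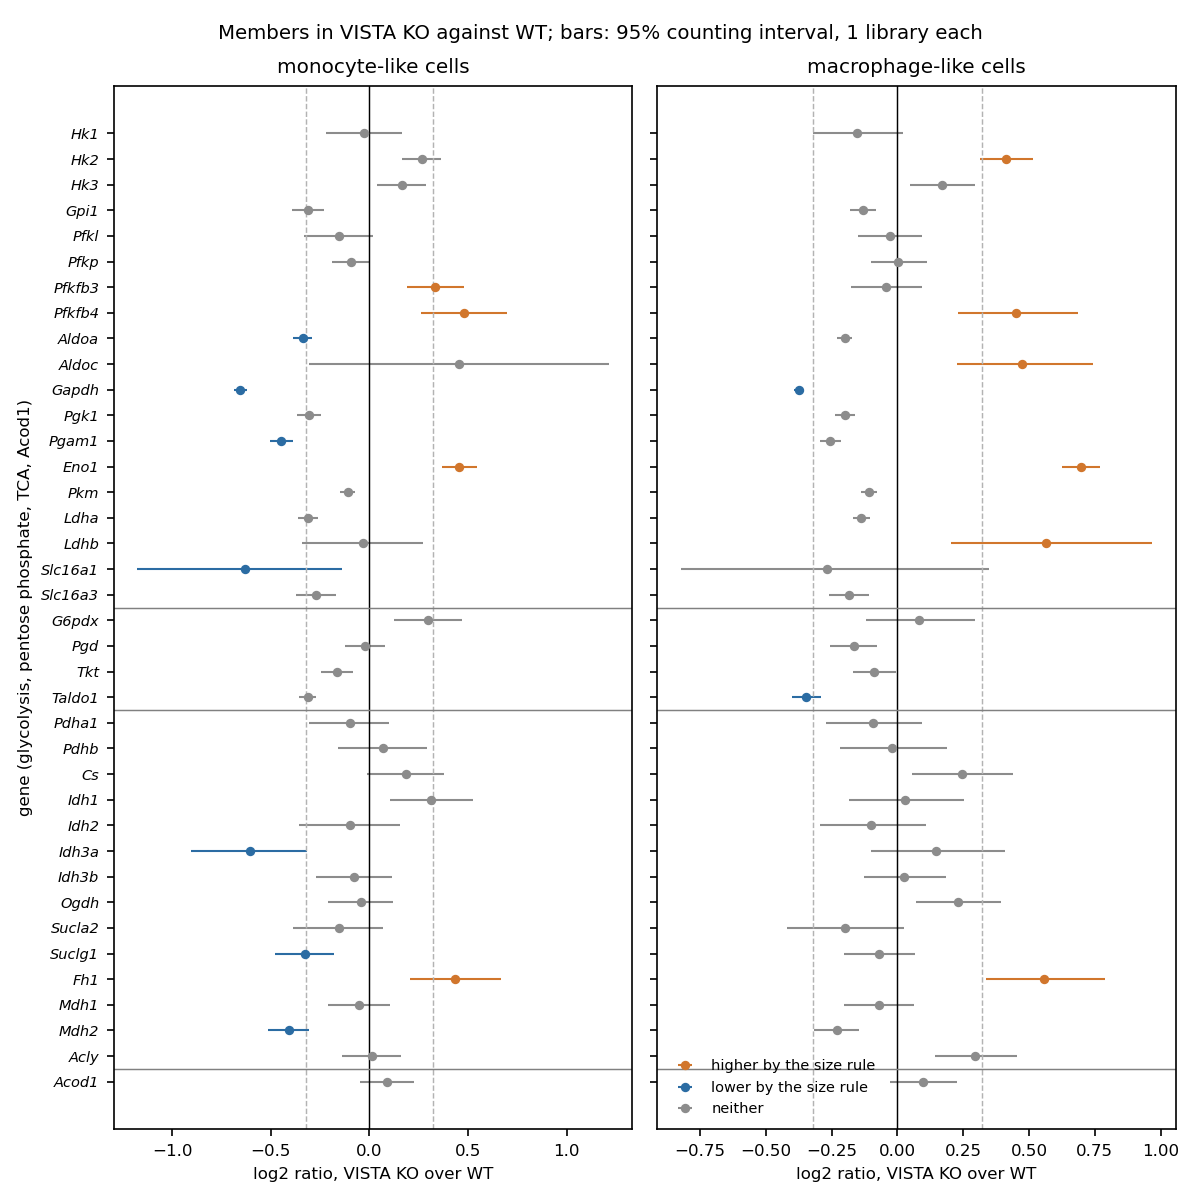
Log2 ratio of VISTA KO to WT for each member in monocyte-like and macrophage-like cells, with 95% intervals that cover counting error only. Eno1 and Fh1 lie above 0 and Gapdh below 0 in both classes, and the dashed lines mark the size asked for (25% higher or 20% lower).

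In macrophage-like cells 6 members were higher and 2 lower, with 9.67% and 5.59% of all 11411 genes. At 1.5-fold 1 was higher and 0 lower, and the shares of all genes at that size are not given. The median log2 ratio was -0.06 over members and 0.02 over all genes. Eno1 was at 226 CPM in WT and 367 CPM in VISTA KO (0.70, 0.63 to 0.77) and Hk2 at 120.4 and 160.4 CPM (0.41, 0.31 to 0.51). Fh1 was at 23.3 and 34.3 CPM (0.56), Pfkfb4 at 23.3 and 31.9 CPM (0.45), Aldoc at 18.3 and 25.5 CPM (0.47) and Ldhb at 8.40 and 12.5 CPM (0.56). On the lower side were Gapdh, at 3902 and 3014 CPM (-0.37, -0.39 to -0.35), and Taldo1, at 474 and 373 CPM (-0.35, -0.40 to -0.29). Without cluster 0, 1 member in place of 2 was lower.

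The size rule was also applied to the 20 clusters one by one. Eno1 was higher in VISTA KO by the size rule in 17 of 20 clusters and lower in 0, with a median log2 ratio of 0.66. Hk2 was higher in 12 and lower in 0 (median 0.43), and Fh1 in 9 of 18 measured and 0 (median 0.45). Gapdh was lower in 12 and higher in 0 (median -0.40), Pgam1 in 7 and 0 (median -0.26), and Mdh2 in 5 and 0 (median -0.31). Taldo1 was lower in 9 and higher in 2 (median -0.33). The clusters of a library share its preparation, so these counts do not stand for repeats.

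The smaller classes gave other counts. In NK-like cells 7 members were higher in VISTA KO and 1 lower, with 9.7% and 3.5% of all 9449 genes. Eno1 was at 140 and 269 CPM there (0.94) and Hk1, the lower gene, at 58.7 and 45.1 CPM (-0.38). The others were Hk3, Pfkfb3, Pgd, Cs, Ogdh and Fh1. The macrophage list was at 5138 and 7246 CPM in NK-like cells and the neutrophil list at 1534 and 448 CPM, and their part in these ratios was not tested. In cDC2-like cells 36 members were measured, 5 of them higher and 7 lower, against 11.2% and 5.05% of all 9219 genes. Of the 7, 6 were glycolysis genes, and Gapdh was at 2165 and 1478 CPM (-0.55). In the mixed neutrophil cluster 6 were higher and 1, Acod1, lower, with 12.5% and 4.31% of all 11324 genes.

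Summed pentose phosphate transcripts were lower in VISTA KO cells in 16 of 20 clusters. The log2 ratio was -0.22 (-0.26 to -0.19) in monocyte-like cells and -0.23 (-0.27 to -0.19) in macrophage-like cells. With each library clustered alone, the monocyte-like ratio was -0.37. With both libraries clustered together, the ratio was 0.50 (0.24 to 0.75) in neutrophil-like cells, where only 574 WT and 166 VISTA KO UMIs lie behind it. Cluster 13 had the lowest ratio, -0.46 (-0.56 to -0.36), with Taldo1 at 501 and 297 CPM. G6pdx in monocyte-like cells was at 47.4 and 58.3 CPM (0.30) and so lay on the other side of 1 from Taldo1, short of the size asked for. Of the other pentose phosphate genes, 0 of 8 measured were past the size rule in monocyte-like cells. The shares of all genes there were 12.9% higher and 7.09% lower. In macrophage-like cells 1 of 9 was higher, beside 9.67% of all genes. That gene was the NAD kinase gene Nadk, at 45.7 and 59.8 CPM (0.38).

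TCA sums differed little between the libraries. The log2 ratio was -0.12 (-0.16 to -0.07) in monocyte-like cells, -0.066 there without cluster 6, and within -0.04 to 0.04 in macrophage-like cells. Members counted were 1 higher and 3 lower of 14 in monocyte-like cells and 1 higher and 0 lower in macrophage-like cells, the higher gene being Fh1 in both. The shares of all genes were 12.9% higher and 7.09% lower in the first class and 9.67% and 5.59% in the second. Of the 28 other pyruvate and TCA genes, 2 of 23 measured were higher and 1 lower in monocyte-like cells and 3 of 25 higher and 1 lower in macrophage-like cells, to be set beside the same shares. Got1, the cytosolic aspartate aminotransferase of the malate-aspartate shuttle, was at 21.9 and 35.5 CPM (0.70) in monocyte-like and 34.5 and 68.0 CPM (0.97) in macrophage-like cells. Me2, the mitochondrial malic enzyme, was the lower gene in both, at 64.4 and 51.3 CPM (-0.33) and 39.7 and 25.0 CPM (-0.67).

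The enolase genes did not move together. Eno1b, a second gene nearly identical to Eno1, was at 19.8 CPM in WT and 5.67 CPM in VISTA KO cells, a log2 ratio of -1.80, and was lower in 14 of 14 clusters where it was measured. Eno2, the neuronal enolase gene, had 13 UMIs in WT and 804 in VISTA KO cells, or 0.211 and 10.0 CPM. In monocyte-like cells Eno2 had 0 UMIs in WT and 26 in VISTA KO, at least 12.2-fold higher against a floor of 3 counts per library, and in macrophage-like cells 4 and 334. Reads of Eno1 and Eno1b could be split between near-identical copies, so both ratios are uncertain. In monocyte-like cells Eno1 made up 84.2% of the UMIs of all 4 enolase genes in WT and 94.4% in VISTA KO, and Eno1b 9.01% and 1.52%. Eno3, the muscle enolase gene, had its highest share in mature DC-like cells, with 49.0% and 31.9%.

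**Figure D5:**
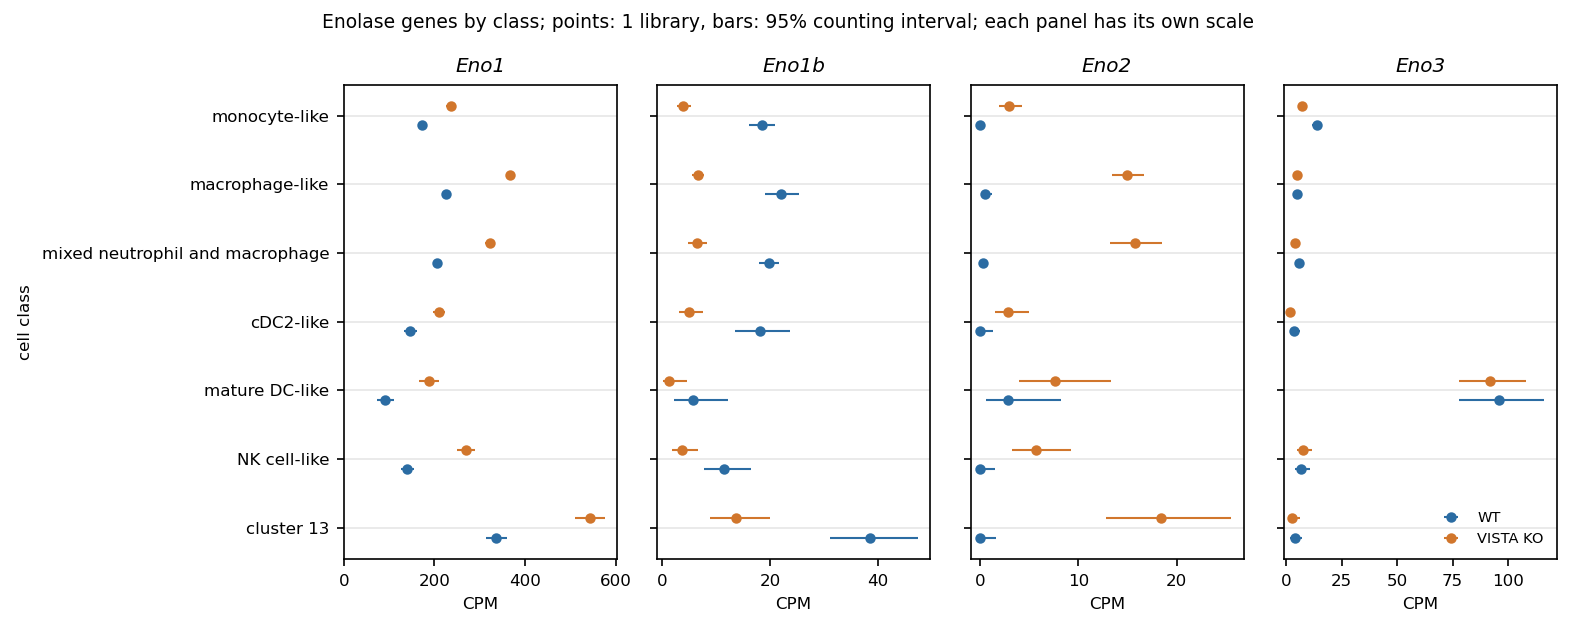
Level in CPM of the 4 enolase genes in each class and library (7 classes, each gene with its own linear scale), with exact Poisson intervals. Eno1 is higher and Eno1b lower in VISTA KO in each class shown, and Eno2 has 0 UMIs in WT monocyte-like cells.

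Hypoxia list genes, whose sum followed that of glycolysis across clusters, gave unlike counts in different classes. In monocyte-like cells 1 of 18 measured was higher in VISTA KO and 7 lower, beside 12.9% and 7.09% of all genes. In macrophage-like cells 2 of 20 were higher and 6 lower, beside 9.67% and 5.59%. The list's median was -0.22 in both classes. In NK-like cells 3 of 18 were higher and 1 lower, beside 9.7% and 3.5%, with a median of 0.24. Hilpda, a lipid droplet protein gene, was at 307 and 204 CPM (-0.58) in macrophage-like cells. Vegfa, the angiogenic growth factor gene, and Hif1a itself were on the other side there, at 80.8 and 117 CPM (0.53) and at 191 and 294 CPM (0.62). Slc2a1, the glucose transporter GLUT1, was at 139 and 138 CPM (-0.01). Of the 29 other glycolysis genes, 1 of 18 measured was higher and 3 lower in monocyte-like cells. In macrophage-like cells 2 of 18 were higher and 2 lower, and the shares of all genes in each class are those given above. Tpi1, the triose phosphate isomerase gene among the 29, was at 514 and 422 CPM in monocyte-like and 1204 and 1089 CPM in macrophage-like cells.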

How the data were processed

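The data were counts: whole-number UMI counts per gene and cell barcode as deposited, written by Cell Ranger 5.0.0 per the file headers, and aligned to mm10 per the submitters' processing notes, which also name Seurat 4.0. Chemistry was 10x 3′ v3.1, per the labels' protocols. The 2 antibody tag libraries were not used. Kept cells had at least 200 genes, at least 500 UMIs and at most 10% mitochondrial UMIs. Both libraries were clustered together in scanpy 1.11.5 (10000 counts per cell, log, 2000 variable genes per library without Vsir, mitochondrial, ribosomal, sex, cycling and all pathway-list genes, 30 principal components, 15 neighbours, Leiden resolution 1, seed 7). No doublet caller was run, and clusters with markers of 2 types were kept as mixed classes. A cluster was named where at least 3 markers of 1 of 16 lists were 1.5-fold up and in at least 20% of its cells, thresholds set after the clusters were seen, and names rest on marker RNA alone.

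UMIs were summed per class and library and given per 1000000 (CPM). Log2 ratios of genes have a pseudocount of 1 UMI per sum. Ratios have exact conditional binomial intervals, levels exact Poisson and shares exact binomial (Clopper-Pearson) intervals at 95%. A gene was measured in a comparison with at least 20 UMIs. It was counted between libraries where at least 25% higher or 20% lower with an interval leaving out 1, and between classes at 1.5-fold in both libraries. Class differences describe clusters of the same cells. Gene sets and members were chosen with earlier results of these data known. Named genes are all members, genes sharing a reaction with a member, the 3 highest and 3 lowest ratios per further list, markers and Vsir. Outside that rule, Slc2a1, Tpi1, Glud1 and Il1b were chosen from the lists after their values were seen. Aldoa has a second row with 0 UMIs, and its first was used. Ratios and intervals were tested on simulated counts with counting error alone, which is the error that the intervals assume. Such counts cannot show whether the intervals cover variation between cells, mice or libraries. Promoters came from RefSeq (GRCm38.p6), which held no window for Idh3a.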

Additional observations from a re-analysis of the deposited data

Results flagged for a closer look

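Aldoc and Acod1 lay on opposite sides of equality in different classes, each with an interval leaving out 1, and the difference itself was not tested. The log2 ratio of VISTA KO to WT for Aldoc was 0.47 in macrophage-like cells and 0.51 in the mixed neutrophil cluster but -0.80 in cDC2-like cells. That of Acod1 was 0.47 in cDC2-like cells, at a level below that of NK-like cells, and -0.34 in the mixed neutrophil cluster.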

How the results depend on the processing

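No paired analysis was possible because neither arm has more than 1 library. Of 208 recomputed values that answer a comparison, 137 stayed within the limits set and 71 moved, and of 271 others 231 stayed and 40 moved. A change of direction was looked for only in ratios whose main interval left out equality, and 0 of these changed it. Counts, medians, shares and the remaining ratios could not be marked as changing direction. Ratios of VISTA KO to WT and differences from monocyte-like cells are log2, WT before VISTA KO, and the cause of the moves was not tested. The Acod1 ratio over all kept cells was -0.68 under a stricter cell filter (500 genes, 1000 UMIs, 5% mitochondrial). Centred on the median gene it was -0.80, members lower were 8 in all kept cells and 11 in monocyte-like cells, monocyte-like glycolysis was -0.35 and pentose phosphate -0.27, and macrophage-like glycolysis -0.21. With totals free of mitochondrial, ribosomal and Malat1 UMIs, macrophage-like glycolysis was 0.75 and 0.87 above monocyte-like cells and NK-like pentose phosphate -1.09 in WT. At 1.5-fold, 1 member was higher and 1 lower in all kept cells, 0 and 3 in monocyte-like cells and 1 and 0 in macrophage-like cells. The recomputed counts of members have no share of all genes at the same setting beside them. With pathway genes kept in clustering, monocyte-like glycolysis was -0.29, and differences from monocyte-like cells were 0.65 and 0.75 for macrophage-like glycolysis, -0.57 and -0.59 for macrophage-like and -1.09 and -0.88 for NK-like pentose phosphate, and 2.04 and 1.74 for Acod1 in the mixed neutrophil cluster. At Leiden resolution 2 the glycolysis ratios were -0.27 in monocyte-like and -0.17 in macrophage-like cells, and the same differences 0.63 and 0.72, -0.58 and -0.58, -1.78 and -1.58, and 2.21 and 1.95, as a mixed NK and macrophage cluster of 130 and 185 cells split off. With each library clustered alone, glycolysis was -0.14 and pentose phosphate -0.37 in monocyte-like cells and -0.020 and -0.31 in macrophage-like cells, 1 member was lower in macrophage-like cells and 1 lower than in monocyte-like cells, and the differences were 0.58 and 0.70, -0.52 and -0.46, -1.76 and -0.78, and 1.95 and 1.77. With clusters weighted equally, glycolysis was -0.25 and -0.15, macrophage-like differences were 0.86 and 0.97 for glycolysis and -0.70 and -0.72 for pentose phosphate, cDC2-like TCA 0.38 and Acod1 2.40 in VISTA KO, and 5 members were lower in macrophage-like cells. Without the cluster of the most uneven share (6 of monocyte-like, 0 of macrophage-like cells), glycolysis was -0.28 and -0.089, monocyte-like TCA -0.066, and 1 member lower in macrophage-like cells. Thinned to 1000 UMIs, differences were 0.77 for macrophage-like glycolysis, -0.71 for its pentose phosphate and 0.35 for cDC2-like TCA in VISTA KO, -1.51 and -1.39 for NK-like pentose phosphate, and 3.02 and 2.41 for Acod1. With the WT make-up, chosen after seeing the data, 1 member was lower in all kept cells and Acod1 was -0.26. Depth limits neutrophil-like cells most, with 515199 and 105630 UMIs in all.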

Other observations

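Genes of the antioxidant response that itaconate is known to engage went to both sides in VISTA KO cells. Nfe2l2, the response's transcription factor, was at 121 CPM in WT and 175 CPM in VISTA KO monocyte-like cells (log2 ratio 0.54) and at 118 and 155 CPM in macrophage-like cells (0.40). Hmox1, the heme oxygenase gene it drives, was at 115 and 107 CPM in monocyte-like cells (-0.10) but at 689 and 444 CPM in macrophage-like cells (-0.63, interval -0.68 to -0.59). Within the clusters of that class, which hold unlike shares of it in the libraries, Hmox1 was at 1029 and 1051 CPM in cluster 5 (0.03), 196 and 126 CPM in cluster 0 (-0.64) and 266 and 197 CPM in cluster 12 (-0.43). Il1b, an inflammatory cytokine gene, was at 532 and 701 CPM in macrophage-like cells (0.40).

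Sdhd, a subunit of succinate dehydrogenase, was at 82.9 and 85.2 CPM in monocyte-like cells (0.04) and 76.2 and 97.3 CPM in macrophage-like cells (0.35). Glud1, which feeds glutamate into the TCA cycle, was highest among the monocyte-like cells in cluster 10, at 357 and 365 CPM. Mdh1 had a high level in T cell-like cells, at 189 CPM in WT (150 UMIs) and 137 CPM in VISTA KO (11 UMIs).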
